A study of Mus musculus with 9 samples.

Results

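The unfolded protein response is described here through 10 named genes of its signalling arms and targets: Eif2ak3, Ern1, Atf6, Atf4, Ddit3, Trib3, Xbp1, Hspa5, Hsp90b1 and Herpud1. All 10 were among the 21769 genes of the deposited count files, and all 10 passed the filter on low counts that 14300 genes passed. Polyadenylated RNA of whole mouse retina was sequenced in 9 libraries of 2 retinae each. Of these, 3 came from rd10 mice at postnatal day 61, whose retinae the labels call degenerated and whose rods are lost through a mutation of Pde6b, the rod phosphodiesterase subunit. A further 3 came from GFP-expressing mice and 3 from wild type mice at day 48, both with retinae called normal. The labels give day 42 to a line written Gg13, taken here to be the GFP-expressing group, and no promoter or cell type for the GFP. Age therefore differed together with genotype, and the effects of age and genotype cannot be told apart.

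The unfolded protein response is the set of signals that the endoplasmic reticulum (ER) sends when unfolded proteins build up in it. PERK, encoded by Eif2ak3, phosphorylates the translation factor eIF2α, which lowers protein synthesis while the transcription factor ATF4 is translated more. IRE1α, encoded by Ern1, splices the messenger RNA of Xbp1 into the form that encodes the active transcription factor. ATF6 moves to the Golgi, where it is cut to release a transcription factor. The 3 arms raise the transcription of ER chaperones, of the machinery that degrades misfolded proteins and, under lasting stress, of genes such as Ddit3, which encodes CHOP. Rods make large amounts of rhodopsin in the ER, and misfolded rhodopsin is a known trigger of this response. The gene counts do not separate spliced from unspliced Xbp1, and they hold no measure of phosphorylation, cleavage or translation.

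In rd10 retina, 3 of the 10 genes were lower than in wild type: Atf4, Trib3 and Hsp90b1. None was higher, and 7 did not pass the test. Against GFP retina, 5 were lower, the same 3 together with Hspa5 and Ddit3, and none was higher. A gene was called where edgeR's quasi-likelihood F-test gave an adjusted p under 0.05 (Benjamini-Hochberg, over all genes tested). Of all 14300 genes, 28.4% were called in rd10 against wild type (14.5% higher, 13.9% lower), and 30.2% were called in rd10 against GFP (15.2% higher, 15% lower). The libraries of 5 of the 10 genes did not overlap in each comparison, all lower in rd10, where 50.5% of all genes did not overlap in either direction against wild type and 48.2% against GFP. The median log2 fold change of the 10 genes was -0.44 against wild type, beside -0.03 over all genes tested, and -0.67 against GFP, beside -0.02 over all genes. Both comparisons use the same rd10 libraries. Levels are given as CPM, counts per 1000000 of a library size adjusted by TMM, the trimmed-mean scaling of edgeR. In bulk retina, fewer cells of a type and less RNA per cell cannot be told apart, and the summed level of 9 rod markers was 398 to 1083 CPM in rd10, against 77865 to 88049 CPM in GFP and 72070.3 to 97002 CPM in wild type. The part of rod loss in these values was not tested.

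The promoters are shown first because they differ in the elements that the response is known to act on. RefSeq windows on GRCm38.p6, from 250 bases before to 50 bases after the annotated start, were matched for 9 of the 10 genes, and Atf6 was not among them. The windows of Hspa5, Hsp90b1, Herpud1 and the stress-induced pseudokinase gene Trib3 are printed 5′ to 3′ on the gene's strand. Capitals mark matches to the ER stress elements or to the C/EBP-ATF response element (CARE) on either strand.
Hspa5, chr2:34771840-34772139, plus strand: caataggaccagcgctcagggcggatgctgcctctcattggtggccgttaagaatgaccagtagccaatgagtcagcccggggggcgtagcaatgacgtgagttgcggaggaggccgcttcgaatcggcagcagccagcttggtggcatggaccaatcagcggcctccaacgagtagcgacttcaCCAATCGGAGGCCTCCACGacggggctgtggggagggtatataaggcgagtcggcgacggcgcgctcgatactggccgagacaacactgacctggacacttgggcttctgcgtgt
Hsp90b1, chr10:86705395-86705694, minus strand: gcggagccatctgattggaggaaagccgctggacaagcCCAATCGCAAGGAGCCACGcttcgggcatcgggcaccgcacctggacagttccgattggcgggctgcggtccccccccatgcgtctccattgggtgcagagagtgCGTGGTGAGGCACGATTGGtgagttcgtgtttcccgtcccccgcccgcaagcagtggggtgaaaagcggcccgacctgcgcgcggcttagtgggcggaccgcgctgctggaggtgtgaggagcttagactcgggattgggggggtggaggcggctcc
Herpud1, chr8:94386179-94386478, plus strand: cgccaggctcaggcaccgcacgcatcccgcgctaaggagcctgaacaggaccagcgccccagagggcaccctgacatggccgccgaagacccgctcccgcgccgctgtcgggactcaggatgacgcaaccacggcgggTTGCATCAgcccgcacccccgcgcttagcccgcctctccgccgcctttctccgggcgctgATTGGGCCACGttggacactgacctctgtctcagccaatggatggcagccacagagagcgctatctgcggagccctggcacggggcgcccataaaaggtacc
Trib3, chr2:152344011-152344310, minus strand: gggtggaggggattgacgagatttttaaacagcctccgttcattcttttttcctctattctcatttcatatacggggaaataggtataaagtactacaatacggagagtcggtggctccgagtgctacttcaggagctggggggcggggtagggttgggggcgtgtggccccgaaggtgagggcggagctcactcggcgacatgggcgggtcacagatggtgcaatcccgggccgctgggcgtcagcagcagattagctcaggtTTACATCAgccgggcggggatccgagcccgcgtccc
The ER stress element (ERSE) is a CCAAT box with a second short box downstream, and it was searched on both strands. It was found in 39 of 32851 RefSeq windows, 0.119%, and among the 10 genes in Hspa5 and Hsp90b1. In Hspa5 it lay at positions -65 to -47 from the start. Hsp90b1 held 2 copies, at -212 to -194 and, on the other strand, at -107 to -89. ERSE-II, a shorter arrangement of the same boxes searched on both strands, was in 12 windows, 0.0365%, and among the 10 genes in Herpud1, at -52 to -42. The CARE, searched as TGATGNAA, was in 3.97% of windows and matched in Herpud1, at -112 to -105, and in Trib3, at 15 to 22 after the start. UPRE, the XBP1-preferred element searched as TGACGTGG, was in 0.676% of windows and matched none of the 9 genes. CCAAT, which is also the first part of the ERSE, was in 37.4% of windows and in 6 of the 9 genes. Each match is a description of letters and no evidence of binding.

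**Figure D1:**
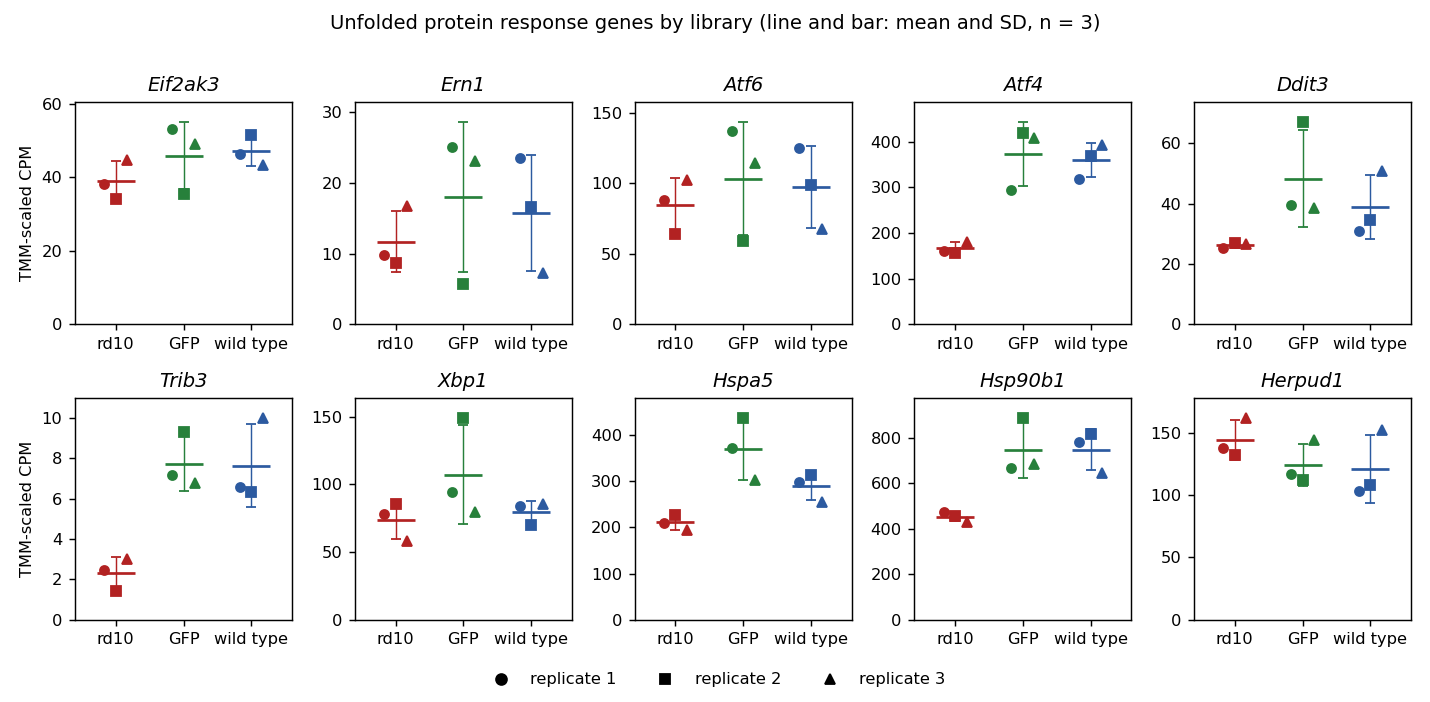
TMM-scaled CPM (vertical axes, linear from 0) of the 10 unfolded protein response genes in rd10, GFP and wild type libraries; points are single libraries, lines and bars the mean and SD of 3. The rd10 points of Atf4, Ddit3, Trib3, Hspa5 and Hsp90b1 lie under every GFP and wild type point, and those of the other 5 genes overlap both groups.

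The sensors did not pass the test in either comparison. Eif2ak3 (PERK, chr6:70794521-70855234 on mm9) had 38.1, 34.1 and 44.8 CPM in rd10, against 53.1, 35.6 and 49 CPM in GFP and 46.4, 51.5 and 43.5 CPM in wild type. The groups overlapped, with a log2 fold change of -0.27 ± 0.185 (SE) against wild type (adjusted p = 0.287) and of -0.24 ± 0.185 against GFP (adjusted p = 0.349). Ern1 (IRE1α, chr11:106258934-106349110) was the most variable of the 10 in all 3 groups, at 9.87, 8.69 and 16.7 CPM in rd10, 25.1, 5.73 and 23.1 CPM in GFP and 23.6, 16.6 and 7.22 CPM in wild type. The lowest GFP and wild type libraries held only 50 and 72 of its counts and lay below all rd10 libraries. Its log2 fold change was -0.43 ± 0.53 against wild type (adjusted p = 0.568) and -0.62 ± 0.529 against GFP (adjusted p = 0.393). Atf6 (chr1:172634588-172797902), the sensor that is itself a transcription factor precursor, had 87.9, 63.8 and 102 CPM in rd10, against 137, 59 and 114 CPM in GFP and 125, 98.5 and 67.5 CPM in wild type. Here too the same GFP and wild type libraries, GFP 2 and wild type 3, were the lowest of their groups. The log2 fold change of Atf6 was -0.20 ± 0.313 against wild type (adjusted p = 0.655) and -0.29 ± 0.313 against GFP (adjusted p = 0.5).

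The PERK arm held the largest differences. Atf4 (chr15:80085614-80087971), whose protein drives amino acid and stress genes, had 161, 156 and 181 CPM in rd10, against 293, 418 and 408 CPM in GFP and 318, 369.5 and 392 CPM in wild type. The highest rd10 library was under the lowest library of both other groups. Atf4 averaged 166 ± 13.2 CPM in rd10, 373 ± 69.5 CPM in GFP and 359.6 ± 37.9 CPM in wild type (SD, n = 3 each). It was 2.17-fold lower than in wild type (log2 fold change -1.12 ± 0.179, adjusted p = 0.00146) and 2.25-fold lower than in GFP (-1.17 ± 0.179, adjusted p = 0.00105). The ATF4 protein is controlled by translation, so these values describe its messenger RNA only.

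Trib3 (chr2:152163161-152169796), a pseudokinase that ATF4 and CHOP induce and that feeds back on ATF4, had the largest fold of the 10. It stood at 2.45, 1.45 and 3.02 CPM in rd10, against 7.16, 9.28 and 6.77 CPM in GFP and 6.56, 6.35 and 10 CPM in wild type, with no overlap. These levels rested on 31, 18 and 41 counts in rd10, 79, 81 and 71 counts in GFP and 65, 66 and 100 counts in wild type. Trib3 was 3.29-fold lower than in wild type (log2 fold change -1.72 ± 0.337, adjusted p = 0.00451) and 3.33-fold lower than in GFP (-1.74 ± 0.337, adjusted p = 0.00409).

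Ddit3 (CHOP, chr10:126727849-126733344), a transcription factor tied to cell death under lasting stress, had 25.2, 26.8 and 26.6 CPM in rd10, against 39.4, 67 and 38.5 CPM in GFP and 31, 34.5 and 50.8 CPM in wild type. The rd10 libraries lay close together and under all others, while GFP 2 and wild type 3 were the highest of their groups. The log2 fold change was -0.88 ± 0.253 against GFP (adjusted p = 0.0243), and -0.57 ± 0.253 against wild type, which did not pass (adjusted p = 0.115, unadjusted p = 0.0472 from the same edgeR fit). Leaving out 1 library ended the call against GFP in 4 of 6 cases, with an adjusted p of 0.0805, 0.0659 and 0.0691 without rd10 1, 2 or 3 and of 0.0628 without GFP 2. The range of adjusted p over all 18 alternatives was 0.000452 to 0.133. On mm9 the 3′ ends of Ddit3 and of Mars, on the opposite strand, overlap, and how the authors assigned reads there is not given in the sources used here.

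Xbp1 (chr11:5420970-5425875), the transcription factor whose messenger RNA IRE1α splices, had 78.1, 85.3 and 58 CPM in rd10, against 94.2, 149 and 79.4 CPM in GFP and 83.7, 70.1 and 85.1 CPM in wild type. Its groups overlapped, and the high GFP 2 value stood apart from the other 8. The log2 fold change was -0.11 ± 0.235 against wild type (adjusted p = 0.751) and -0.54 ± 0.235 against GFP (adjusted p = 0.103).

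**Figure D2:**
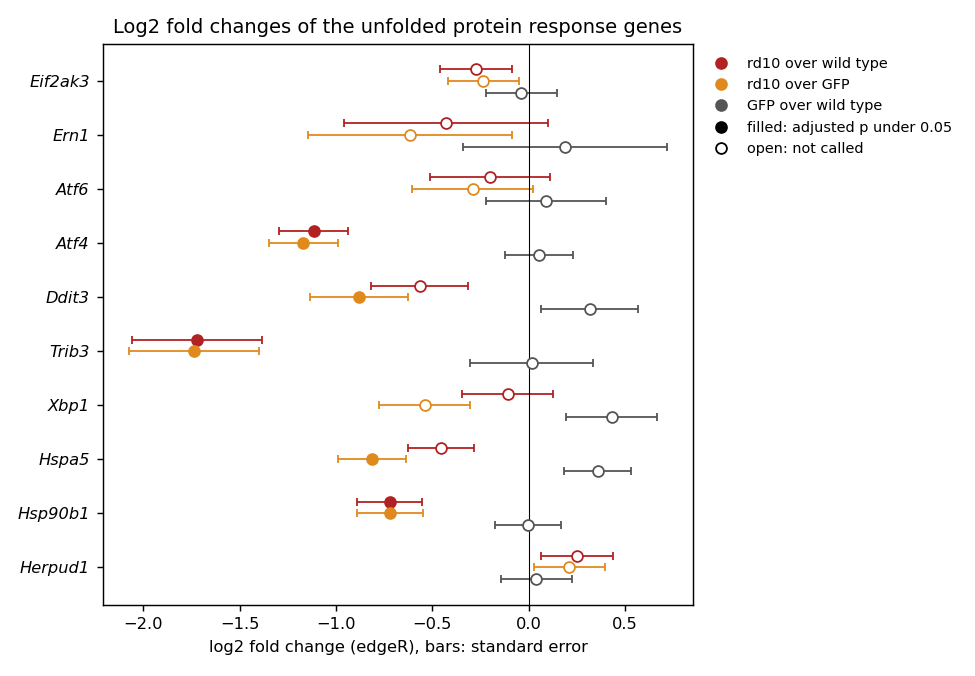
Log2 fold change (horizontal axis) and its standard error for each of the 10 genes in rd10 over wild type, rd10 over GFP and GFP over wild type; filled points passed an adjusted p under 0.05. Atf4, Trib3 and Hsp90b1 are filled in both rd10 comparisons, Hspa5 and Ddit3 in rd10 over GFP, and no point is filled in GFP over wild type.

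Of the ER chaperones with an ERSE in the window, Hsp90b1 was lower in both comparisons and Hspa5 against GFP, and Herpud1, with ERSE-II, was not called. Hsp90b1 (GRP94, chr10:86153586-86168189), the HSP90 of the ER, had 473, 454 and 431 CPM in rd10, against 665, 887 and 683 CPM in GFP and 780.4, 815 and 644 CPM in wild type. All rd10 libraries were under all others. It was 1.65-fold lower than in wild type (log2 fold change -0.72 ± 0.171, adjusted p = 0.0111) and 1.65-fold lower than in GFP (-0.72 ± 0.171, adjusted p = 0.0109).

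Hspa5 (BiP, chr2:34627610-34632049), the HSP70 of the ER that holds the sensors inactive, had 209.7, 227 and 195 CPM in rd10, against 372, 436 and 302 CPM in GFP and 299, 313 and 255 CPM in wild type. The rd10 libraries did not overlap either group. Hspa5 was 1.76-fold lower than in GFP (log2 fold change -0.81 ± 0.174, adjusted p = 0.00657), a call lost without the 4 libraries with lens markers above 1000 CPM (0.0705) and without all 5 over 10 times the lowest lens level (0.106, the highest of a range from 5.4e-05). Against wild type the log2 fold change was -0.46 ± 0.173, and the test was not passed (adjusted p = 0.0707). It was passed in 5 of 18 alternatives, among them DESeq2 (adjusted p = 0.0438), a fit of only the 2 groups compared (0.0429) and a fit without wild type 3 and GFP 2 (0.0255), over a range of 0.000216 to 0.502.

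Herpud1 (chr8:96910400-96919258), a membrane protein of ER-associated degradation that ER stress induces, was the only one of the 10 with a positive log2 fold change. It had 138, 132 and 162 CPM in rd10, against 117, 112 and 144 CPM in GFP and 103, 108 and 152 CPM in wild type. The groups overlapped, with a log2 fold change of 0.25 ± 0.185 against wild type (adjusted p = 0.33) and 0.21 ± 0.185 against GFP (adjusted p = 0.404). That sign turned when libraries were scaled by inner retinal neuron markers, to -0.57 against wild type and -0.56 against GFP.

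A ratio of 2 counts within a library does not depend on scaling, and these ratios were chosen after the values had been seen, so they describe the same libraries and support nothing further. The count of Atf4 over that of Herpud1 was 1.17, 1.18 and 1.12 in rd10, against 2.51, 3.73 and 2.84 in GFP and 3.1, 3.42 and 2.58 in wild type. No rd10 library reached the lowest of the others. Hsp90b1 over Herpud1 was 3.44, 3.45 and 2.66 in rd10, against 5.69, 7.91 and 4.75 in GFP and 7.6, 7.54 and 4.25 in wild type, also without overlap. Hspa5 over Herpud1 was 1.52, 1.72 and 1.21 in rd10, against 3.19, 3.89 and 2.1 in GFP and 2.91, 2.9 and 1.68 in wild type, where rd10 2 and wild type 3 overlapped. Between the chaperones, Hspa5 over Hsp90b1 was 0.444, 0.5 and 0.453 in rd10, against 0.56, 0.491 and 0.443 in GFP and 0.383, 0.384 and 0.395 in wild type. That ratio was higher in every rd10 and GFP library than in every wild type library.

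Per kilobase of the longest annotated transcript, the mean level in rd10 ran in the order Hsp90b1 (160.2 ± 7.37 CPM per kb), Atf4 (96.2 ± 7.64), Herpud1 (73.6 ± 8.21), Hspa5 (57.4 ± 4.31), Xbp1 (34.7 ± 6.67), Ddit3 (29.4 ± 0.985), Atf6 (11.7 ± 2.65), Eif2ak3 (8.64 ± 1.19), Ern1 (1.69 ± 0.62) and Trib3 (1.14 ± 0.393, SD, n = 3). Xbp1 and Ddit3 lay within 1 SD of each other there, as did Ern1 and Trib3. In wild type, Hsp90b1 (264 ± 32 CPM per kb) and Atf4 (208 ± 22) again led. Hspa5 (78.7 ± 8.28 CPM per kb) stood there by its mean above Herpud1 (61.9 ± 13.8), which overlapped it within their SDs. Ddit3 (43.6 ± 11.9 CPM per kb) and Xbp1 (37.4 ± 3.89) lay within 1 SD, and so did Atf6 (13.4 ± 3.98) and Eif2ak3 (10.4 ± 0.902). Trib3 (3.77 ± 1.02 CPM per kb) and Ern1 (2.28 ± 1.18) came last.

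GFP and wild type retinae showed no difference in these genes that passed the test. None of the 10 was called by edgeR, none had an unadjusted p under 0.05, none was called by DESeq2, and the libraries of the 2 groups overlapped in all 10, beside 3.99% of all genes that did not overlap. Of all genes tested, 0% were called, 1.5% had an unadjusted p under 0.05, and DESeq2 called 2 genes, both lower. The log2 fold changes of the 10 genes ran from -0.04 for Eif2ak3 to 0.43 for Xbp1. Hspa5 was at 370.1 ± 66.8 CPM in GFP and 289 ± 30.4 CPM in wild type (SD, n = 3 each), with a log2 fold change of 0.36 ± 0.173 and an adjusted p of 1.

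Beyond the 10 genes, 4 lists of the pathway were read. Of 16 ER chaperones and folding enzymes, 5 were lower in rd10 than in wild type (31.2%, beside 13.9% of all genes) and none was higher (beside 14.5%), with a median log2 fold change of -0.31. Against GFP, 7 were lower (43.8%, beside 15% of all genes) and none was higher (beside 15.2%), with a median of -0.39. Log2 fold changes lay above 0 for 3 of the 16 genes against wild type and for 4 against GFP. Of these, Dnajb9 was higher without overlap in both comparisons but not called. Its log2 fold change was 0.45 ± 0.171 against wild type (adjusted p = 0.0695) and 0.43 ± 0.171 against GFP (adjusted p = 0.0803). Pdia4, a protein disulfide isomerase, had 59.4, 50.7 and 52.8 CPM in rd10, against 118, 114 and 119.8 CPM in GFP and 100.4, 125 and 92.5 CPM in wild type, without overlap. Pdia4 changed by a log2 fold of -0.97 ± 0.151 against wild type (adjusted p = 0.00125) and -1.11 ± 0.151 against GFP (adjusted p = 0.000495). Creld2, an ER stress-inducible secreted chaperone-like protein, had 22, 24.5 and 18.3 CPM in rd10, against 41.5, 80.9 and 38.4 CPM in GFP and 37.2, 52.3 and 45.1 CPM in wild type. Creld2 stood at a log2 fold change of -1.05 ± 0.28 against wild type (adjusted p = 0.0184) and -1.31 ± 0.281 against GFP (adjusted p = 0.00684). The call against wild type was lost in 5 of 18 alternatives. They included library totals (-0.76, adjusted p = 0.0572) and fits without wild type 2 (0.0674), rd10 1 (0.0582) or rd10 3 (0.0745). P4hb, the classical protein disulfide isomerase, and Dnajb11, a cochaperone of BiP, had smaller changes of -0.53 ± 0.153 (adjusted p = 0.0268) and -0.55 ± 0.165 (adjusted p = 0.0302) against wild type. Both lost these calls in 8 of 18 alternatives, including library totals (-0.23 and -0.26, adjusted p = 0.232 and 0.258). P4hb also lost its call without wild type 2 or any single rd10 library. Dnajb11 also lost its call without wild type 1, wild type 2 or any single rd10 library. Against GFP, Dnajb11 had a log2 fold change of -0.63 ± 0.165 (adjusted p = 0.0164), a call lost in 5 alternatives, including without rd10 1 or rd10 3. Manf, a secreted ER stress-induced factor, was lower than in GFP (-1.03 ± 0.241, adjusted p = 0.0101) and was not called against wild type (-0.51 ± 0.24, adjusted p = 0.133).

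ER-associated degradation, the removal of misfolded proteins to the proteasome, held 14 genes, of which 1 was lower (7.14%, under the shares of all genes) and none higher in each comparison. Edem2, a mannosidase-like protein that marks glycoproteins for removal, had 27.1, 31.8 and 27.2 CPM in rd10, against 62.1, 66.4 and 48.2 CPM in GFP and 52.4, 48.3 and 62.6 CPM in wild type. It was the gene called, at a log2 fold change of -0.92 ± 0.175 against wild type (adjusted p = 0.00377) and -1.04 ± 0.175 against GFP (adjusted p = 0.00193). The list's median log2 fold change was -0.23 against wild type and -0.30 against GFP.

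Of the 23 targets of ATF4 and CHOP, 17 were not called against wild type, 3 were higher and 3 lower, with a median log2 fold change of 0.12. These shares of 13% each were near the 14.5% higher and 13.9% lower over all genes. Against GFP, 14 were not called, 5 were higher (21.7%, beside 15.2% of all genes) and 4 lower (17.4%, beside 15%), with a median of 0.38. Vldlr, a lipoprotein receptor, had 122, 120.1 and 126 CPM in rd10, against 425, 332 and 386 CPM in GFP and 410.4, 325 and 281 CPM in wild type. It was 2.76-fold lower than in wild type (log2 fold change -1.46 ± 0.178, adjusted p = 0.000236) and 3.1-fold lower than in GFP (-1.63 ± 0.179, adjusted p = 9.8e-05), a call kept in all 18 alternatives of both comparisons. Ddit4, an inhibitor of mTORC1 signalling, had 37, 40.1 and 33.5 CPM in rd10, against 75.1, 78.8 and 85.9 CPM in GFP and 77.4, 76.4 and 69.8 CPM in wild type. Ddit4 changed by a log2 fold of -1.02 ± 0.135 against wild type (adjusted p = 0.000435) and -1.12 ± 0.135 against GFP (adjusted p = 0.000208). Atf3, a stress-induced transcription factor, was at most 3.17 CPM in rd10, against at least 6.86 CPM in GFP and 6.44 CPM in wild type. It was called lower against wild type (-2.45 ± 0.458, adjusted p = 0.00349) and against GFP (-1.70 ± 0.456, adjusted p = 0.0182), where the call was lost without rd10 1 (0.0677) or rd10 2 (0.0699), over a range of 0.000865 to 0.0699 in 18 alternatives.

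Slc7a11, the cystine transporter, was higher, with 17.8, 25.4 and 22.3 CPM in rd10, against 9.7, 1.72 and 5.72 CPM in GFP and 5.35, 7.12 and 6.21 CPM in wild type. Its log2 fold change was 1.81 ± 0.443 against wild type (adjusted p = 0.0127) and 1.92 ± 0.445 against GFP (adjusted p = 0.00966). The call against wild type was lost under inner retinal neuron scaling (0.99, adjusted p = 0.0691) and without the 4 libraries with lens markers above 1000 CPM (1.90, adjusted p = 0.183), over a range of 1.3e-05 to 0.183. The other 2 genes called higher against wild type, named after their values had been seen, were Cebpb and Asns. Cebpb, a transcription factor that pairs with CHOP, had a log2 fold change of 1.56 ± 0.416 (adjusted p = 0.0186) at 2.92 to 5.6 CPM in rd10, against 1.15 to 1.61 CPM in wild type. Against GFP, at 1.27 to 2.57 CPM, Cebpb was not called (1.03 ± 0.404, adjusted p = 0.0762). Asns, asparagine synthetase, had 115, 104 and 78.5 CPM in rd10, against 37.8, 61.3 and 65.4 CPM in GFP and 38.7, 66.3 and 65.2 CPM in wild type. Its log2 fold change of 0.80 ± 0.26 against wild type (adjusted p = 0.0412) lost its call without wild type 1, 2 or 3 and without rd10 1 or 2 (0.0579 to 0.123), and turned to -0.02 under inner retinal neuron scaling, over a range of 3.41e-05 to 0.954 in 18 alternatives. Cebpb lost its call against wild type under inner retinal neuron scaling (0.75, adjusted p = 0.159), in both fits without lens-rich libraries, and without wild type 2, rd10 2 or rd10 3 (0.0631, 0.051 and 0.0761, within a range of 0.00352 to 0.326). Levels of Atf4 messenger RNA were lower in the same rd10 libraries.

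**Figure D3:**
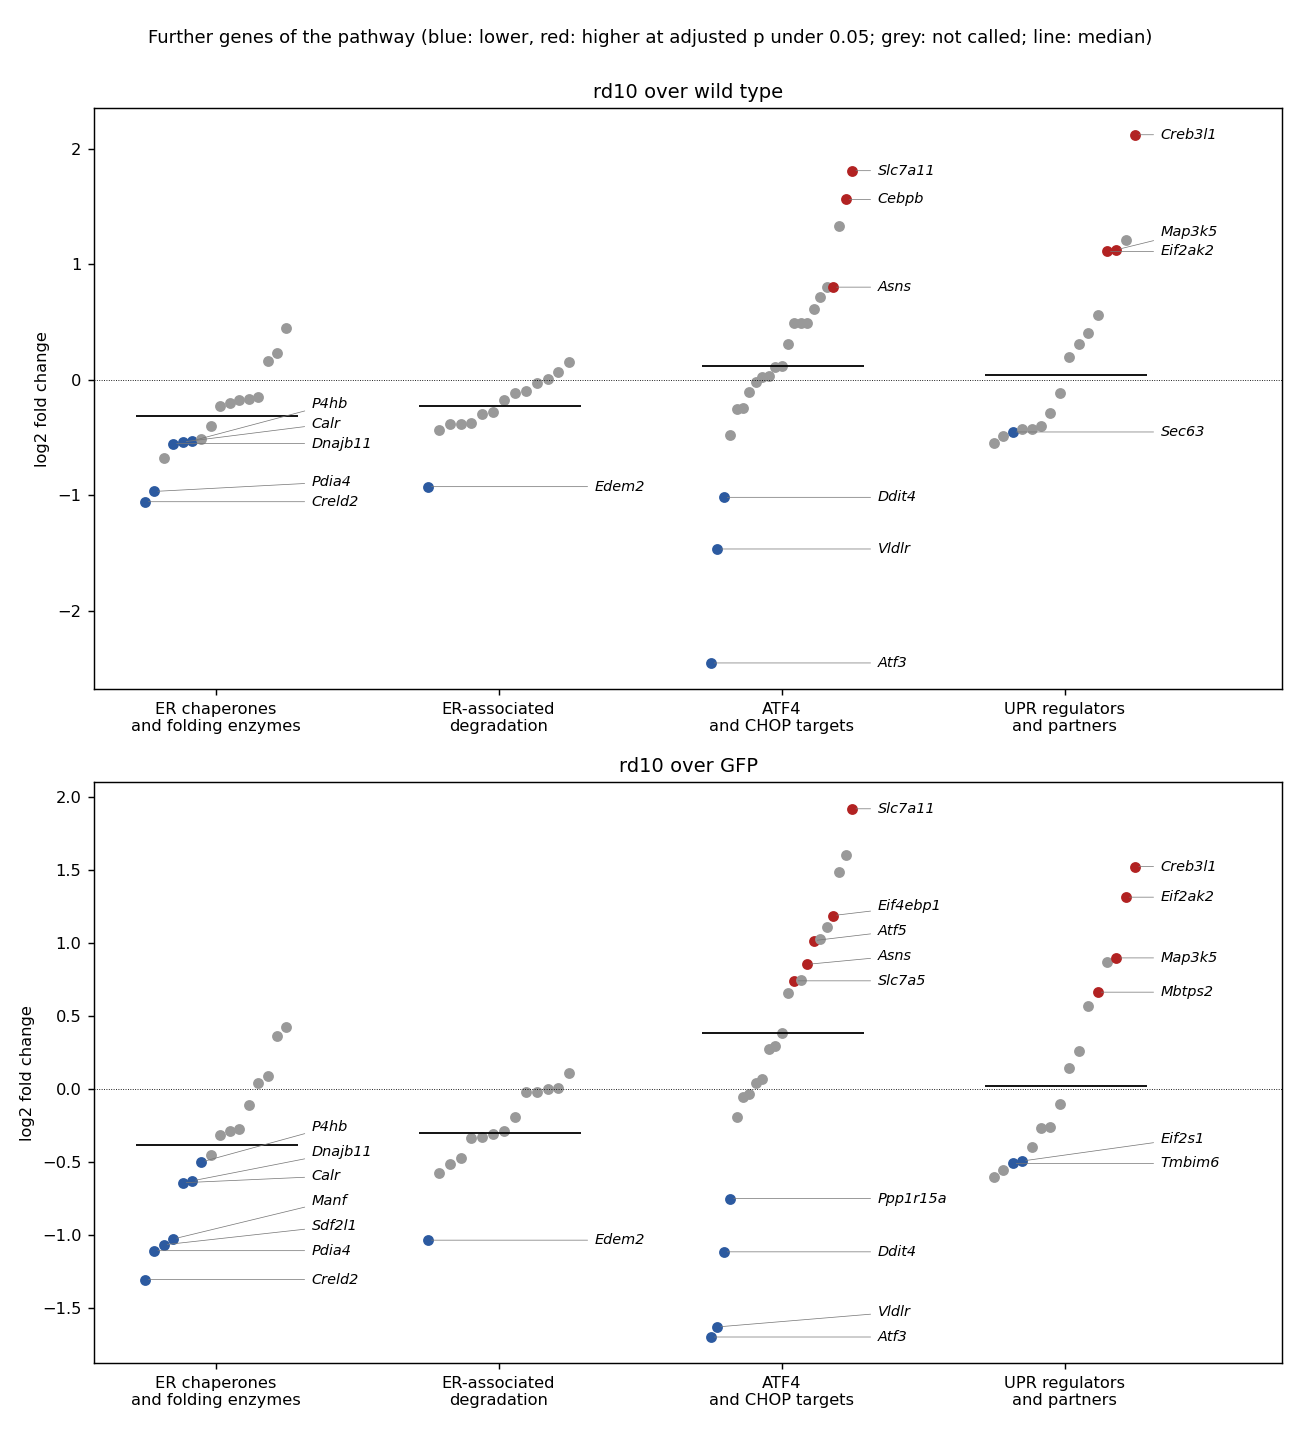
Log2 fold changes (vertical axes) of the genes in 4 lists of the pathway for rd10 over wild type and rd10 over GFP; each point is a gene, coloured by its call, and the line is the median. Chaperones called in the rd10 comparisons all lie below 0, at 5 and 7 of 16 genes, while the ATF4 and CHOP targets hold calls on both sides.

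Among 17 regulators and partners of the response, 16 were tested, and 3 were higher (18.8%, beside 14.5% of all genes) and 1 lower (6.25%, beside 13.9%) in rd10 than in wild type. Against GFP, 4 were higher (25%, beside 15.2%) and 2 lower (12.5%, beside 15%). Creb3l1, a membrane-bound transcription factor related to ATF6, had 13, 14.4 and 14 CPM in rd10, against 5.17, 5.5 and 3.72 CPM in GFP and 2.83, 3.94 and 2.71 CPM in wild type. It was 4.35-fold higher than in wild type (log2 fold change 2.12 ± 0.262, adjusted p = 0.000264) and 2.88-fold higher than in GFP (1.52 ± 0.254, adjusted p = 0.00178). Map3k5 (ASK1), a kinase that IRE1α can recruit, had 48.6, 45 and 50 CPM in rd10, against 28.5, 27 and 21.6 CPM in GFP and 23.4, 23.4 and 19 CPM in wild type. Map3k5 rose by a log2 fold of 1.13 ± 0.173 against wild type (adjusted p = 0.00115) and 0.90 ± 0.172 against GFP (adjusted p = 0.00381). Under inner retinal neuron scaling neither passed, at 0.31 (0.148, the highest of a range from 1.16e-08) and 0.14 (0.513, the highest of a range from 1.05e-05). Eif2ak2 (PKR), another eIF2α kinase that double-stranded RNA activates, had 14.4, 10.5 and 16.6 CPM in rd10, against 5.8, 5.5 and 5.34 CPM in GFP and 5.35, 4.81 and 9.02 CPM in wild type. Eif2ak2 rose by a log2 fold of 1.31 ± 0.29 against GFP (adjusted p = 0.00768) and 1.11 ± 0.287 against wild type (adjusted p = 0.0162), where the call was lost without wild type 1, wild type 2, rd10 1 or rd10 3 (0.0502 to 0.0652, within a range of 0.00121 to 0.423). Under inner retinal neuron scaling neither passed, at 0.29 against wild type (0.423) and 0.55 against GFP (0.128).

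Sec63, which couples BiP to the translocation channel, was called lower against wild type (log2 fold change -0.45 ± 0.139, adjusted p = 0.0338) and lost that call in 12 of 18 alternatives, including without any single rd10 or wild type library (0.0562 to 0.145, within a range of 4.64e-05 to 0.436). Mbtps2, the protease that makes the second cut in ATF6, was called higher against GFP (0.66 ± 0.203, adjusted p = 0.0314) and not against wild type, where the groups overlapped (0.40 ± 0.202, adjusted p = 0.155). That call was lost without rd10 1, rd10 2, GFP 1 or GFP 2 (0.0649 to 0.114, within a range of 0.00516 to 0.729).

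Over the 4 lists together, 6 of 69 tested genes were higher (8.7%, beside 14.5% of all genes) and 10 lower (14.5%, beside 13.9%) in rd10 than in wild type. Against GFP, 9 were higher (13%, beside 15.2%) and 14 lower (20.3%, beside 15%). The 4 lists together were thus near or under the shares of all genes against wild type. Against wild type the number higher was 3 without wild type 2 and the number lower was 5 without wild type 2, rd10 1 or rd10 3 and 6 without rd10 2. Against GFP the number higher was 4 without rd10 1 and the number lower was 6, 8 and 9 without rd10 1, 2 and 3. No gene of the lists was called by edgeR in GFP against wild type, and 4 of the 69 had an unadjusted p under 0.05.

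The ERSE was also followed across all genes with a matching window, to set Hspa5 and Hsp90b1 beside other genes with the same element. Of 37 such genes, 20 were tested, of which 5 were lower (25%, beside 13.9% of all genes) and none higher (beside 14.5%) in rd10 than in wild type, with a median log2 fold change of -0.17. Against GFP, 6 were lower (30%, beside 15%) and 2 higher (10%, beside 15.2%), with a median of 0.07. Those lower against wild type, named after their values had been seen, were Hsp90b1, Calr, Creld2, Alg12 and Pan2. The elements of 5 such genes from the chaperone set are given here on the strand that reads CCAAT first, with the fixed letters in capitals.
Hspa5: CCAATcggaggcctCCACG
Hsp90b1, distal copy: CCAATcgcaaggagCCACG
Hsp90b1, proximal copy: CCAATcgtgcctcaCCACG
Calr: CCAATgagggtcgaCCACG
Creld2: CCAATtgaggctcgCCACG
Canx: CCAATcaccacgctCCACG
Calreticulin (Calr), the lectin chaperone, had 469.6, 473 and 500.3 CPM in rd10, against 728, 834 and 693 CPM in GFP and 647, 847 and 599.9 CPM in wild type. Its log2 fold change was -0.54 ± 0.171 against wild type (adjusted p = 0.0386). That call was lost in 10 of 18 alternatives, including library totals (-0.24, adjusted p = 0.252). It was also lost when any single rd10 or wild type library but wild type 3 was left out. Against GFP the change was -0.64 ± 0.171 (adjusted p = 0.0178), a call lost in 5, including library totals (-0.32, 0.129) and without rd10 1 or rd10 2. Canx, calnexin, its membrane-bound relative, also holds the element and was not called, at 0.16 against wild type (adjusted p = 0.487) and 0.36 against GFP (adjusted p = 0.115). Dnajc3 and Pdia6 of the chaperone list, whose elements are not printed, hold an ERSE too and were not called in either rd10 comparison. Dnajc3 was at 0.23 against wild type (adjusted p = 0.255) and -0.11 against GFP (0.579). Pdia6 was at -0.23 (0.338) and -0.45 (0.066). Creld2 and Alg12, a mannosyltransferase of glycan assembly, both lie on chromosome 15, and the elements in their windows read the same on opposite strands. They may thus be a single shared element, so these genes may not count separately. The log2 fold change of Alg12 was -0.72 against wild type (adjusted p = 0.0168). Of the 11 tested genes with an ERSE that stood in none of the lists, 2 were lower and none higher against wild type, with a median of 0.14, and 2 were lower and 2 higher against GFP, with a median of 0.52.

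The genes with profiles most like Hspa5 and Ddit3 over the 9 libraries were found among 11712 genes by the root mean square difference of centred log2 CPM. Nearest to Hspa5 were Commd5 (0.103), Zfp410 (0.118), P4ha1 (0.128), Exosc4 (0.131) and Dolk (0.132). P4ha1, a prolyl hydroxylase subunit of collagen folding in the ER, had 55.8, 74.9 and 60.6 CPM in rd10, against 92.9, 114 and 78.9 CPM in GFP and 85.4, 95.8 and 70.7 CPM in wild type. Nearest to Ddit3 were 2410003K15Rik (0.0975), Trex1 (0.0988), Snhg12 (0.099), Cnih4 (0.106) and Nfkbia (0.132). Like Ddit3, all 5 were highest in their groups in GFP 2 and wild type 3, so the likeness follows those libraries as well as the groups.

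Single libraries stood apart in ways that touched these genes. The GFP and wild type libraries were spread by transcript length, in both directions. Over all genes with transcripts over 5 kb, the median log2 deviation from the other 2 libraries of the group was 0.36, -0.48 and 0.13 in GFP 1, 2 and 3 and 0.38, -0.05 and -0.30 in wild type 1, 2 and 3. Under 1.5 kb it was -0.45, 0.67 and -0.23 in the GFP libraries and -0.43, 0.14 and 0.31 in the wild type libraries. Wild type 1 thus lay at least as far out as wild type 3, on the other side. Ern1, with a transcript of 6946 bases, deviated by -1.98 in GFP 2 and -1.40 in wild type 3, and Atf6, with 7246 bases, by -1.08 and -0.71. Ddit3, with 890 bases, deviated by 0.78 and 0.63. In wild type 1 the deviations were 1.07 for Ern1, 0.62 for Atf6 and -0.43 for Ddit3. The cause of this trend was not tested. With the trend removed, 5 of the 10 genes were lower than in wild type and 5 lower than in GFP. Without wild type 3 and GFP 2, the numbers were 4 and 7, and without wild type 1 alone 3 were lower than in wild type. The shares of all genes called with the trend removed, or without wild type 3 and GFP 2, are not given. Those counts of the 10 genes thus cannot be set against all genes.

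**Figure D4:**
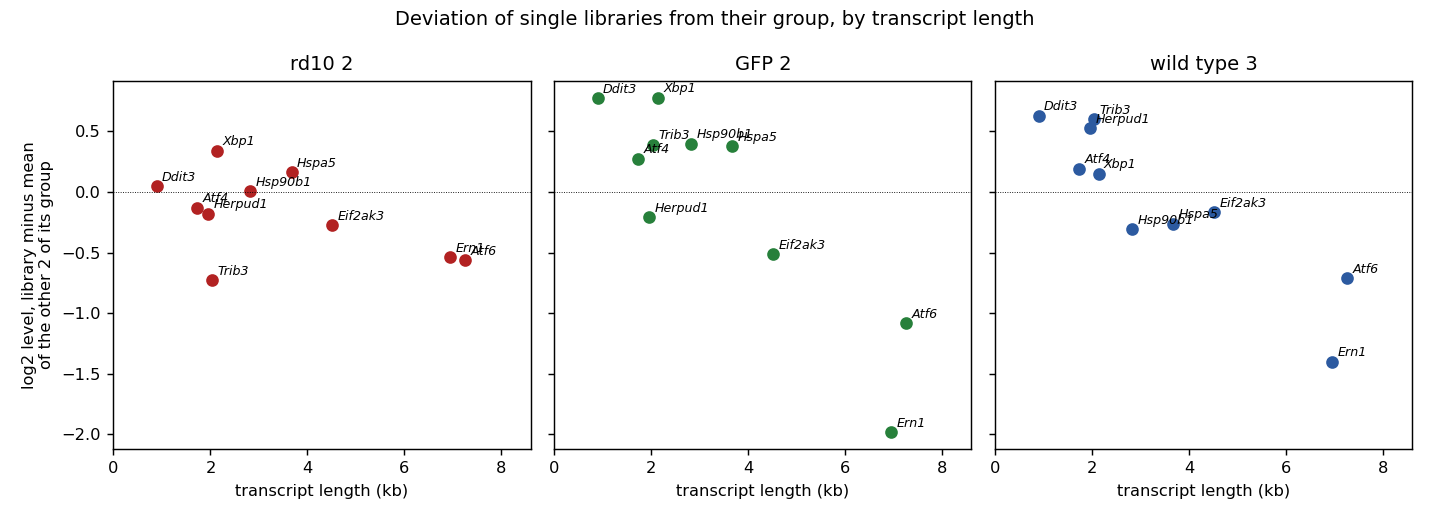
Log2 deviation of rd10 2, GFP 2 and wild type 3 from the mean of the other 2 libraries of their group (vertical axis) against transcript length in kb (horizontal axes); each point is one of the 10 genes. In GFP 2 and wild type 3, Ern1 and Atf6 lie far below 0 and Ddit3 lies above 0.

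Lens markers were also present in some retinae of each group, with a sum over 15 genes of 5.45 to 4602 CPM in rd10, 4.95 to 3716 CPM in GFP and 5.95 to 4302 CPM in wild type. It was above 1000 CPM in rd10 2, GFP 1, wild type 2 and wild type 3. Without these 4 libraries, no gene of the 10 passed against wild type in edgeR, where 1 wild type library was left and assumed to vary like the other groups. The log2 fold changes were then -0.90 for Atf4 (adjusted p = 0.148), -0.79 for Hsp90b1 (0.226) and -1.26 for Trib3 (0.213), each the highest adjusted p of that gene's alternatives, which reached down to 3.22e-08, 8.28e-05 and 3.15e-05. Against GFP, Atf4 (-1.28, adjusted p = 0.0189) and Trib3 (-1.55, adjusted p = 0.0465) passed. Of the 69 list genes, 1 was then higher and 1 lower against wild type. Other marker sums also moved with the groups. They were higher in rd10 for Müller glia, at 8269 to 8776 CPM in rd10, against 4826 to 5649.8 CPM in GFP and 3942 to 5343 CPM in wild type, and for microglia, at 128 to 143 CPM in rd10, against 34.7 to 40.8 CPM in GFP and 38.8 to 53.1 CPM in wild type. Their part in the results was not tested.

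Scaling set how many of the 10 genes passed. With library totals in place of TMM, the median log2 fold change of all genes shifted to 0.25 against wild type and 0.31 against GFP, and 2 and 3 of the 10 were lower. Fewer of all genes were also called lower than with TMM. Hsp90b1 then did not pass, at -0.43 against wild type (adjusted p = 0.0596) and -0.39 against GFP (adjusted p = 0.0796), within ranges of 8.28e-05 to 0.226 and 0.000112 to 0.112. With libraries scaled by markers of bipolar, amacrine and ganglion cells, the median of all genes shifted to -0.85 and -0.78, and 9 and 10 of the 10 genes were lower. Most of all genes tested were called lower there too, as counted in the last section. A change of scaling shifts all genes together, so the position of a gene relative to that median carries no further information. Atf4, Trib3, Hsp90b1, Hspa5 and Ddit3 kept a negative log2 fold change in all 18 alternatives of both rd10 comparisons.

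**Figure D5:**
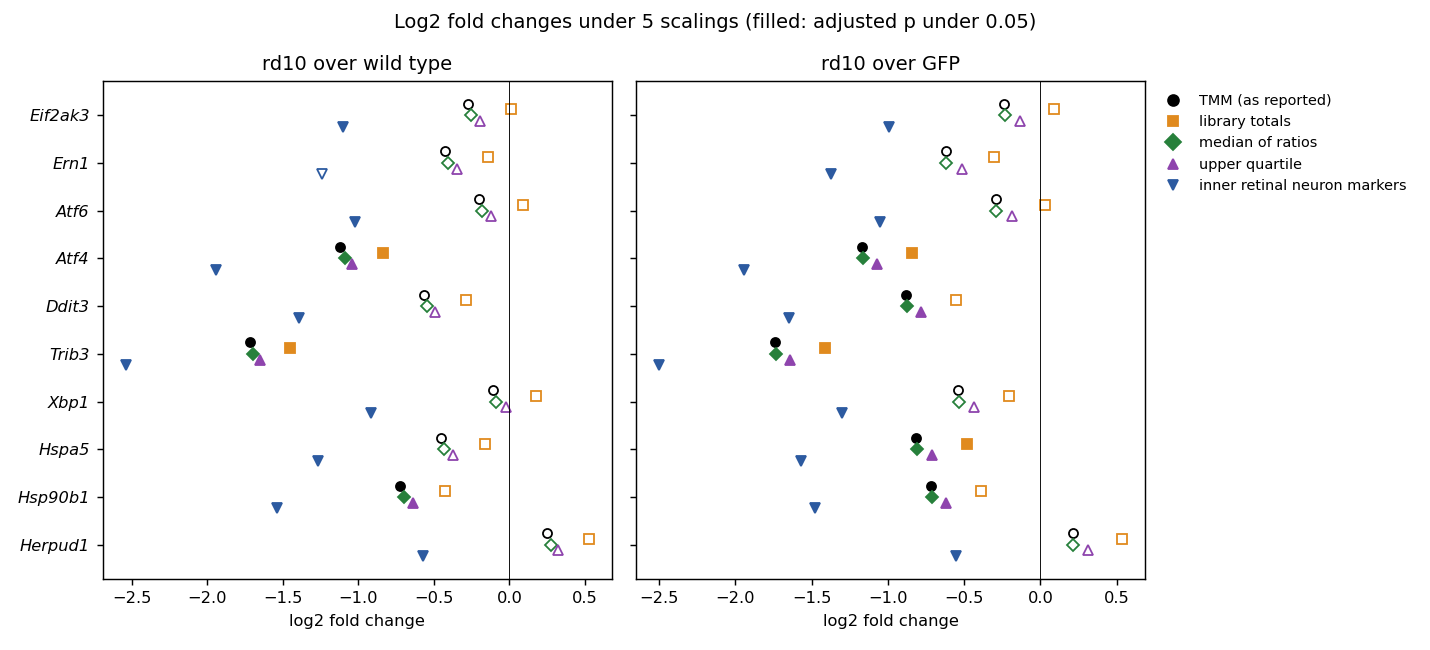
Log2 fold changes (horizontal axes) of the 10 genes in rd10 over wild type and rd10 over GFP under 5 scalings of library size; filled points passed an adjusted p under 0.05. Atf4 and Trib3 are filled and below 0 under each scaling, while Herpud1 changes sign under inner retinal neuron scaling.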

How the data were processed

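Per the labels, each library held 2 retinae, and polyadenylated RNA was fragmented and primed with random hexamers. Raw counts per gene were deposited by the authors, on mouse build mm9 per the submitters' processing notes and the files. The aligner, counting program, annotation, strand setting and handling of reads with several matches are not given in the sources used here. Totals ran from 9597635 to 12149448 counts, so 1 CPM stood for 8.73 to 13.6 counts. Replicates of a group differed by more than counting noise (chi-square per degree of freedom 13 to 76.1). The labels do not tie same-numbered libraries together.

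Genes were filtered with filterByExpr of edgeR 4.0.16 in R 4.3.3 (minimum count 10, minimum total 15), and TMM-scaled. A single quasi-likelihood model with 1 mean per group covered 9 libraries. Benjamini-Hochberg adjustment covered the 14300 genes tested, and SE is the log2 fold change divided by the root of F. The method was tested on simulated data in which few genes were changed, equally in both directions. That test cannot assess the scaling where many genes differ, as in rd10. The ERSE and ERSE-II searches used fixed letters with free bases between the boxes, on both strands of each window. Alternatives were DESeq2 1.42.0, other scalings, no filter, the replicate block, 2-group fits and left-out libraries. The length and 4-library lens alternatives were chosen after seeing the data, with a loess span of 0.5. Inner retinal neuron scaling used the median, over bipolar, amacrine and ganglion marker genes, of each count relative to the gene's geometric mean over libraries. Positions are those of the files on mm9, promoter windows are RefSeq's on GRCm38.p6, and transcript lengths are the longest basic GENCODE transcript on that build, had for 98.9% of genes tested. Members, lists and tests were chosen with earlier results of these data known. Up to 4 genes per list and comparison were named by smallest adjusted p, and 5 by likeness, at a mean of at least 5 CPM. Blood markers were at 0.643 to 4.41 CPM in sum over 2 matched genes. Cone markers summed to 1178 to 1215 CPM in rd10, 1067 to 1382 CPM in GFP and 1281 to 1728 CPM in wild type. Single cone markers moved in both directions within that sum. Opn1sw was at 211 to 227 CPM in rd10, 379.7 to 451 CPM in GFP and 457 to 541 CPM in wild type. Pde6c was at 239 to 282 CPM in rd10, 70.9 to 82.6 CPM in GFP and 113 to 159.8 CPM in wild type. Pigment epithelium markers summed to 373 to 492 CPM in rd10, 237 to 353 CPM in GFP and 138 to 436 CPM in wild type, and blood vessel markers to 521 to 738 CPM in rd10, 124 to 273 CPM in GFP and 131 to 228 CPM in wild type. Nearly all of that vessel sum was Kdr (495 to 711 CPM in rd10, 90.1 to 234 CPM in GFP and 105 to 201 CPM in wild type), while Pecam1 was at 7.03 to 9.14 CPM in rd10, 8.25 to 9.81 CPM in GFP and 9.12 to 11.8 CPM in wild type. Bipolar markers summed to 2447 to 3102 CPM in rd10, 1309 to 1613 CPM in GFP and 1217 to 1598 CPM in wild type, amacrine markers to 1926 to 2067 CPM in rd10, 1190.3 to 1355 CPM in GFP and 1226 to 1319 CPM in wild type, and ganglion cell markers to 1349 to 1547 CPM in rd10, 870.1 to 1051 CPM in GFP and 935 to 1037 CPM in wild type.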

Additional observations from a re-analysis of the deposited data

How the results depend on the processing

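Of the 10 genes, Atf4 and Trib3 were lower at an adjusted p under 0.05 in all 18 alternatives against GFP and in 17 of 18 against wild type; the exception is the 5-library fit without the 4 libraries over 1000 lens CPM. In rd10 against wild type, 3 of the 10 genes were lower in every fit that left out 1 library, and against GFP 4 to 5 were. The 10 genes held 9 lower calls under inner retinal neuron scaling, 5 with the length trend removed and 0 without the 4 lens libraries against wild type, and 10, 5 and 2 against GFP, where library totals and the fit without all libraries over 10 times the lowest lens level gave 3 each. Genes of the pathway lists called higher and lower against wild type numbered 12 and 11 with DESeq2, 18 and 5 with library totals, 11 and 7 with upper quartile scaling, 1 and 48 with inner retinal neuron scaling, 11 and 14 without wild type 3 and GFP 2, 13 and 8 without the libraries over 10 times the lowest lens level, 1 and 1 without the 4 lens libraries, 12 and 12 with the length trend removed and 10 and 10 with only the 2 groups compared. Against GFP they numbered 19 and 6 with library totals, 2 and 46 with inner retinal neuron scaling, 8 and 7 without the libraries over 10 times the lowest lens level, 5 and 6 without the 4 lens libraries and 14 and 19 with the length trend removed. Leaving out 1 library gave 3 to 7 higher and 5 to 10 lower against wild type, and 4 to 8 higher and 6 to 13 lower against GFP. All genes called higher and lower numbered 3603 and 1079 (library totals), 158 and 8232 (inner retinal neuron scaling) and 86 and 457 (without the 4 lens libraries) against wild type, and 4040 and 1055, 232 and 7874, and 876 and 970 against GFP. Leaving out 1 library gave 1269 to 1809 higher and 1186 to 1711 lower against wild type, 1298 to 2175 and 1305 to 2097 against GFP, and 0 to 4 higher and 0 lower in GFP against wild type. Counts over all genes in the rd10 comparisons are not given for DESeq2, upper quartile scaling, the 2-group fits or the length trend removed. Nor are they given without wild type 3 and GFP 2 or without the libraries over 10 times the lowest lens level. The list counts of those fits thus cannot be set against all genes. In GFP against wild type, DESeq2 called 2 genes lower, and the fit without the libraries over 10 times the lowest lens level called 13 higher and 10 lower. That fit keeps 2 rd10 libraries, 1 GFP library and 1 wild type library, so its spread comes from rd10 alone and its counts compare single libraries, assumed to vary like rd10. The fit without the 4 lens libraries likewise keeps 1 wild type library. Same-numbered libraries had correlations of -0.36 to 0.1 (rd10 and wild type), -0.34 to 0.39 (rd10 and GFP) and -0.42 to 0.17 (GFP and wild type). Differently numbered libraries reached 0.54 (GFP 2 and wild type 3). Deviations were centred in groups of 3, which forces signs to mix, so these values cannot show whether the numbers mark pairs. With the replicate block, 3 genes of the 10 were lower against wild type and 5 against GFP, the lists gave 7 higher and 7 lower and 9 higher and 11 lower, and all genes 1817 higher and 1789 lower and 1996 higher and 1912 lower. Log2 fold changes that turned in sign, none of them called in the main analysis except Mbtps2 and Asns, were as follows. With library totals, Atf6 (0.0875), Xbp1 (0.177) and Eif2ak3 (0.0132) turned against wild type, and Atf6 (0.0267) and Eif2ak3 (0.0859) against GFP. With inner retinal neuron scaling, Herpud1 (-0.573), Mbtps2 (-0.403) and Asns (-0.0225) turned against wild type, and Herpud1 (-0.555) and Mbtps2 (-0.0955) against GFP. Without the 4 lens libraries Atf6 turned against GFP (0.128). Leaving out 1 library gave ranges that crossed 0 against wild type for Atf6 (-0.408 to 0.0554) and Ern1 (-0.778 to 0.00967), both positive without wild type 1, and for Xbp1 (-0.2 to 0.0634), positive without rd10 3. In GFP against wild type, the changed signs were of Hsp90b1 with DESeq2 (0.0126), DESeq2 size factors (0.0127), no filter (0.00989), without the 4 lens libraries (0.00758) and with the length trend removed (0.0135), of Trib3 with library totals (-0.0369), upper quartile (-0.0132) and inner retinal neuron scaling (-0.0423), and of Herpud1 with library totals (-0.0103) and inner retinal neuron scaling (-0.0176). Without wild type 3 and GFP 2, Eif2ak3 turned (0.059). Without the libraries over 10 times the lowest lens level, Atf6 (-0.137), Xbp1 (-0.0758), Ern1 (-0.0342) and Eif2ak3 (0.0774) turned, and without the 4 lens libraries Atf6 (-0.534) and Ern1 (-0.707). Leaving out 1 library gave Atf4 from -0.0166 to 0.208, Hsp90b1 from -0.127 to 0.0791, Trib3 from -0.114 to 0.259, Herpud1 from -0.0679 to 0.237, Eif2ak3 from -0.146 to 0.136, Atf6 from -0.156 to 0.391 and Ern1 from -0.158 to 0.627. The causes of these changes were not tested.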
